A study of Homo sapiens with 12 samples.

Results

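The genes described here are 10 transcripts: 8 secreted inflammatory factors that breast cancer cells can make themselves, and 2 inhibitors of the pathway that switches them on. They were taken by symbol from the count table, and all 10 were present among its 25369 gene symbols. They are the chemokines CXCL8, CXCL1, CXCL2 and CCL20, the interleukin 6 family cytokines IL6, IL11 and LIF, the soluble pattern recognition protein PTX3, and TNFAIP3 and NFKBIA, which restrain NF-kB. After a filter on low counts 7 of the 10 remained among the 12514 genes tested. IL6, CCL20 and LIF were below the filter and are given as read counts, with their values from a fit without the filter.

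The libraries came from tumours that cells of the triple-negative breast cancer line MDA-MB-231 formed in the mammary fat pad of mice, with 10 mice per group and 3 tumours sequenced in each of 4 groups. The combination group received both SB202190 and the EZH2 inhibitor. Mice of the p38i group were given 1 mg/kg/day of SB202190, which blocks p38 MAP kinases. Mice of the EZH2i group were given 10 mg/kg/day of EPZ-6438 (tazemetostat), which blocks the histone methyltransferase EZH2 and whose code the labels also write as EPZ-6428. The control group received the vehicle of 4% DMSO, 30% PEG 300 and 5% Tween 80, although the treatment field of its samples reads None. All mice were injected intraperitoneally on 5 days a week, from a tumour volume of 100 mm3. The duration of treatment, the mouse strain and the age of the mice are not given in the sources used here, and all tumours derive from 1 cell line. Libraries are named by group and tumour number, except the p38i libraries under the header names 5 and 6 (columns 5 and 6), which the labels do not tie to 1 tumour each.

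Transcription of most of these genes is known to be switched on when NF-kB, freed from its inhibitor IkB alpha (the product of NFKBIA), binds kB sites in their promoters, often beside the factor AP-1. TNFAIP3 encodes A20, a ubiquitin-editing enzyme, and both inhibitor genes are themselves NF-kB targets, so that the pathway limits its own activity. Many of the messages carry AU-rich elements in the 3' untranslated region, which mark them for rapid decay. The p38 kinase, through its substrate MK2, is known to hold off that decay by acting on binding proteins such as tristetraprolin, the product of ZFP36. Triple-negative lines are known for secreting several of these factors, which draw in neutrophils and act on bone, vessels and the tumour cells.

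The promoter sequences are shown because they carry the elements that define the group. RefSeq windows of 300 bases (250 before and 50 after the transcript start, build GRCh38.p14) were at hand for 9 of the 10 genes, and LIF had none. The kB-like sequence GGNNNTTCC, searched on both strands, occurred in 8 of these 9 windows, all except that of IL11, and in 20.1% of 35116 promoter windows of the same length. The AP-1 sequence TGANTCA, on either strand, occurred in 2 of the 9, CXCL8 and IL11, and in 7.71% of all windows. The C/EBP-like sequence TTGCNNAA, on either strand, occurred in 3, those of CXCL2, IL6 and PTX3, and in 10.5% of all. No match of one kind overlapped a match of another in these genes. A match describes letters and does not show that a factor binds there. The stretches from 110 to 31 bases before the start read as follows, 5' to 3' on the gene's own strand, with kB-like and AP-1 matches in capitals (the capitals of IL11 are AP-1, all others kB-like).
CXCL8 (chr4:73740459-73740538, plus strand): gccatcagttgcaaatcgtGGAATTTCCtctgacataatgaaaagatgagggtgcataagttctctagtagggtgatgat
CXCL1 (chr4:73869283-73869362, plus strand): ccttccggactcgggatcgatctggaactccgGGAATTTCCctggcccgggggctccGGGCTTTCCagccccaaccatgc
CXCL2 (chr4:74099226-74099305, minus strand): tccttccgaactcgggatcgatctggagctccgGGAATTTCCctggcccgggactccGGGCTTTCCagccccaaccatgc
CCL20 (chr2:227813732-227813811, plus strand): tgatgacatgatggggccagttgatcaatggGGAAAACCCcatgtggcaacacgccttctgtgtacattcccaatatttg
IL6 (chr7:22727090-22727169, plus strand): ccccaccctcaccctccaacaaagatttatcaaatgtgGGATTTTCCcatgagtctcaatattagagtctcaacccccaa
IL11 (chr19:55370494-55370573, minus strand): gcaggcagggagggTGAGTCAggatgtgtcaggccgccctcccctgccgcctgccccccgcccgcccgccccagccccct
PTX3 (chr3:157436740-157436819, plus strand): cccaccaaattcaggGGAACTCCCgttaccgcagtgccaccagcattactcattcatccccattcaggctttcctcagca
TNFAIP3 (chr6:137867149-137867228, plus strand): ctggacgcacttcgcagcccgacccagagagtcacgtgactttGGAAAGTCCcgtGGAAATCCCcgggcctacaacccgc
NFKBIA (chr14:35404780-35404859, minus strand): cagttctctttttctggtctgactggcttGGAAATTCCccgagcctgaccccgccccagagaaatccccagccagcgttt
CXCL1 and CXCL2, neighbours on chromosome 4, carry the same pair of kB-like matches, 78 and 53 bases before the start in CXCL1 and 77 and 53 bases before it in CXCL2. The kB-like matches of CCL20, PTX3 and TNFAIP3 lie on the other strand, that of PTX3 at 95 bases before the start.

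The AU-rich elements are shown because p38 is known to act through them on many of the messages that carry them. In the 3' untranslated regions of 1 GENCODE release 29 transcript per gene (GRCh38), the pentamer ATTTA occurred at least 3 times in each of the 10 genes, against 39.5% of 18904 protein-coding genes. The nonamer TTATTTATT occurred in CXCL8, CXCL1, CXCL2, IL11, LIF and TNFAIP3, that is in 6 of 10, against 7.97% of all genes. CXCL2 had the most pentamers, 10 in 721 bases. PTX3 had 4 pentamers in 649 bases and NFKBIA 3 in 502 bases, and both lacked the nonamer. The window of 30 bases with the most pentamers (in capitals) is given for 6 genes.
CXCL8: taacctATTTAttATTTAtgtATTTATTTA
CXCL1: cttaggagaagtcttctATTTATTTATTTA
CXCL2: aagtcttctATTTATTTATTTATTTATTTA
IL11: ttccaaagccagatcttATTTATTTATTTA
PTX3: actagctcacgtcATTTAattataaATTTA
NFKBIA: ctaaaaaaagaaaaaagaagaaaaaATTTA
The first 4 of these windows hold pentamers that overlap end to end, whereas those of PTX3 and NFKBIA stand alone.

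Sequencing depth was lowest in EZH2i 6-1, with 2208771 counts, and highest in combination 9-1, with 4467942. The 10 listed markers of the line all passed the filter. VIM, which encodes vimentin, was at 3770 to 6380 CPM (read counts relative to the scaled library total). KRT18 was at 131 to 342 CPM and KRT8 at 28.9 to 62.4 CPM. Of the leukocyte markers, NKG7, CSF3R and S100A9 had no count in any library, and CD3E, TYROBP, FCER1G, LST1 and S100A8 had at most 2. PTPRC, the general leukocyte gene, had 27 to 106 counts and CD68 23 to 63, while CSF1R had 1 to 15, CD14 1 to 12, MS4A1 2 to 11 and ITGAM 0 to 6. The 15 leukocyte markers summed to 28.8 to 33.3 CPM in combination, 28.3 to 53 in p38i, 28.8 to 37.1 in EZH2i and 24.6 to 32.4 CPM in control libraries, and their part in the results was not tested. Fibroblast markers, 7 of 8 testable, summed to 540 to 1130 CPM in combination, 289 to 888 in p38i, 640 to 983 in EZH2i and 458 to 956 CPM in control libraries. The p38i library of column 6 stood apart by skeletal muscle transcripts, whose 12 markers summed to 1290 CPM there and to at most 144 CPM in any other library. These are bulk libraries, in which fewer cells of a type and less RNA per cell cannot be told apart. Reads were aligned to the human genome and a removal of mouse reads is not recorded. Leukocytes, fibroblasts and muscle of the host would be mouse cells, so these marker sums may not measure them.

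None of the 7 genes passed an adjusted p of 0.05 in any of the 6 comparisons with edgeR's quasi-likelihood test. PTX3 in combination tumours came nearest (5.89-fold the control level, edgeR adjusted p = 0.0824), and it was the 1 gene of the group whose 3 combination libraries lay above all 9 others. Against control the combination called 1 gene of the series (0.00799%), p38i 221 (1.77%) and EZH2i 27 (0.216%), and the p38i count came to 2 without p38i 3-3 or column 6. Between the combination and either single agent no gene was called (0%), and 3 were called for the interaction (0.024%). With DESeq2, run as an alternative, PTX3 and CXCL8 passed for the combination against control, PTX3 passed against each single agent, and none of the 7 passed for p38i or EZH2i against control or for the interaction. Of the 12514 genes, DESeq2 called 167 for the combination, 632 for p38i and 232 for EZH2i against control. It called 7 for the combination against p38i, 1 against EZH2i and 226 for the interaction. With limma-voom none of the 7 passed in any comparison.

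Without adjustment, 3 of the 7 genes had p under 0.05 for the combination against control, all with higher levels in combination tumours, as did 7.66% of all genes. For p38i against control 2 of 7 had a higher level at that p (9.08% of all genes), and for EZH2i against control 0 of 7 (7.43%). It was 1 of 7 for the combination against p38i (3.52%), 2 of 7 against EZH2i (1.45%) and 1 of 7 for the interaction (6.19%). None of the 7 was lower at that p in any comparison. The median log2 fold change of the 7 was 1.13 for the combination, 0.18 for p38i and 0.06 for EZH2i against control, while that of all genes tested was 0.01, 0.00 and 0.01 in the same order. These medians cover the genes that passed the filter, not all 10.

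**Figure D1:**
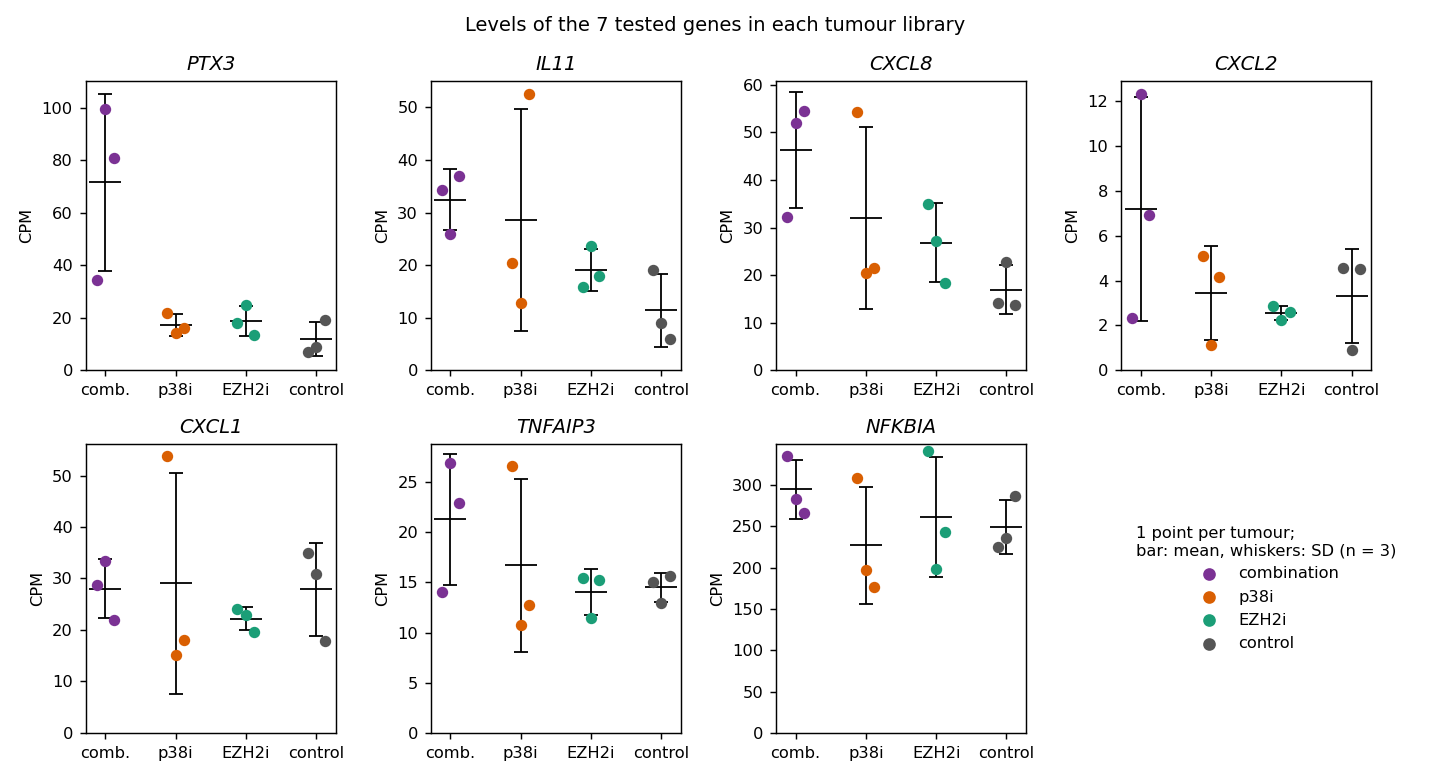
CPM of each of the 7 tested genes (y axis, linear, from 0) in the combination, p38i, EZH2i and control tumours (x axis), with 1 point per tumour, the mean as a bar and the SD as whiskers (n = 3). PTX3 lies between 34.3 and 99.5 CPM in combination tumours, above the 13.5 to 24.9 CPM of EZH2i and the 14.1 to 21.8 CPM of p38i tumours, while CXCL1 and NFKBIA overlap in all groups.

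Of the 3 chemokines in the filtered fit, CXCL8 had the largest fold difference between combination and control tumours. CXCL8 encodes interleukin 8, which attracts neutrophils through CXCR1 and CXCR2. Its level was 32.2, 52 and 54.6 CPM in combination tumours, 54.2, 20.4 and 21.5 in p38i tumours (3-3, column 5, column 6), 35, 27.1 and 18.3 in EZH2i tumours, and 14.2, 22.8 and 13.8 CPM in control tumours. All combination tumours lay above all controls, whereas p38i and EZH2i tumours overlapped them, and p38i 3-3 stood at the level of the upper combination tumours. The means were 46.3 ± 12.2 CPM in combination and 16.9 ± 5.12 CPM in control tumours (SD, n = 3 each), a log2 difference of 1.45 (SE 0.38, edgeR adjusted p = 0.175, DESeq2 adjusted p = 0.0261). Over all alternatives the CXCL8 adjusted p ran from 0.0261 to 0.539, and DESeq2 was the 1 under the threshold. For p38i against control the log2 difference was 0.90 (SE 0.38, edgeR adjusted p = 0.23), which came to 0.31 without p38i 3-3. For EZH2i it was 0.66 (SE 0.39, edgeR adjusted p = 0.45).

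CXCL1 and CXCL2 encode close relatives that signal through the same receptor, CXCR2. CXCL1 measured 28.7, 33.5 and 22 CPM in combination, 53.9, 15.2 and 18.1 in p38i, 24, 22.9 and 19.6 in EZH2i, and 35, 30.9 and 17.8 CPM in control tumours. The groups overlapped throughout, and the widest gap lay within the p38i group, between tumour 3-3 and the libraries of columns 5 and 6. Against control the CXCL1 log2 difference was 0.03 for the combination (SE 0.40), 0.05 for p38i (SE 0.40, and -0.73 without p38i 3-3) and -0.31 for EZH2i (SE 0.41), with edgeR adjusted p values of 0.977, 0.963 and 0.771.

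CXCL2 was thinly covered, with 3 to 56 counts per library. It measured 2.34, 12.3 and 6.9 CPM in combination, 5.11, 1.1 and 4.16 in p38i, 2.85, 2.24 and 2.62 in EZH2i, and 4.58, 0.901 and 4.5 CPM in control tumours. Combination 9-1 and 9-2 were the highest libraries of all, while combination 8-1 lay within the EZH2i and control ranges. The CXCL2 log2 difference of the combination was 1.13 against control (SE 0.63, edgeR adjusted p = 0.38) and 1.51 against EZH2i (SE 0.67, edgeR adjusted p = 0.991). Without combination 9-1 these came to 0.49 and 0.86. CXCL1 and CXCL2 share sequence: 60 of 1169 windows of 50 bases in the CXCL2 transcript (5.13%) also occur unchanged in CXCL1, so some reads could have been assigned to either.

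CCL20, the ligand of CCR6, had few reads. Its counts were 3, 6 and 5 in combination, 1, 0 and 2 in p38i, 0, 0 and 1 in EZH2i, and 0, 6 and 9 in control tumours. The single-agent tumours held at most 2 reads each, and the controls ranged from no read to the highest count. CCL20 was left out of the filtered fit. In the fit with no filter its edgeR adjusted p ran from 0.165 (interaction) to 1 over the 6 comparisons, and 4 of the 6 had an unadjusted p under 0.05. In these 4, CCL20 was lower than control with p38i (log2 difference -2.19) and with EZH2i (-3.25). It was higher with the combination than with EZH2i (3.09), and the interaction was 5.28. These differences rest on 0 to 9 reads per library. The share of all genes at that p in the fit with no filter was not computed, so the 4 of 6 have no background.

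The 3 members of the interleukin 6 family, which signal through the shared receptor chain gp130 (IL6ST), differed widely in number of reads. IL6 itself was nearly absent: it had 0, 2 and 0 counts in combination, 0 in each p38i and EZH2i library, and 1 in each control. That is 5 reads in 12 libraries. In the 8 libraries at 0 the count allows up to 3 reads, or between 0.734 and 1.31 CPM depending on the library, for counting error only. LIF, which sustains STAT3 signalling, had 1, 16 and 7 counts in combination, 2, 0 and 6 in p38i, 3, 1 and 2 in EZH2i, and 0, 3 and 8 counts in control tumours. Its counts overlapped between all groups. Combination 9-1, the deepest library, was the highest for LIF in count and also in CPM (3.52). In the fit with no filter neither IL6 nor LIF passed in the 6 comparisons. The edgeR adjusted p ran from 0.518 to 1 for IL6 and from 0.716 to 1 for LIF. At an unadjusted p under 0.05 there was 1 comparison for IL6 and 0 for LIF. For that fit, the share of all genes at that p was not computed.

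**Figure D2:**
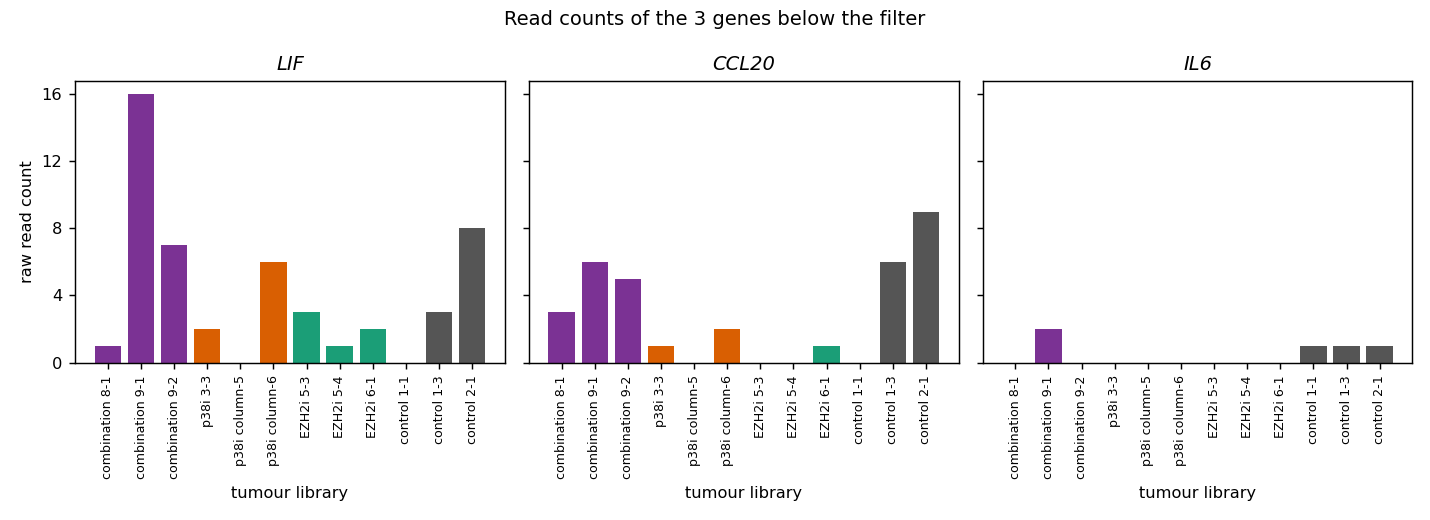
Raw read counts (y axis, linear) of LIF, CCL20 and IL6 in each of the 12 tumour libraries (x axis), coloured by group in the order combination, p38i, EZH2i and control. The highest bar is LIF in combination 9-1 with 16 reads, and IL6 reaches at most 2.

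IL11, a cytokine known to be made by breast cancer cells that spread to bone, was well covered, with 25 to 215 counts. It measured 34.3, 26 and 37 CPM in combination, 20.4, 12.7 and 52.6 in p38i, 15.9, 23.6 and 17.9 in EZH2i, and 19.1, 9.01 and 5.92 CPM in control tumours. The combination tumours lay above all control and all EZH2i tumours, and the single highest value was that of p38i column 6, the library with muscle transcripts. The part of those transcripts in its IL11 level was not tested. Combination tumours averaged 32.4 ± 5.75 CPM and control tumours 11.4 ± 6.92 CPM (SD, n = 3 each), a log2 difference of 1.56 (SE 0.49, edgeR adjusted p = 0.208). The p38i difference from control was 1.40 (SE 0.50, edgeR adjusted p = 0.157) and 0.60 without column 6. For EZH2i it was 0.82 (SE 0.51, edgeR adjusted p = 0.478).

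PTX3 encodes a long pentraxin, a secreted protein that binds microbes and complement and is made under NF-kB and interleukin 1 signals. It measured 34.3, 99.5 and 81 CPM in combination tumours, 21.8, 14.1 and 15.9 in p38i tumours, 17.9, 24.9 and 13.5 in EZH2i tumours, and 7.08, 9.01 and 19.2 CPM in control tumours. The 3 combination tumours lay above the 9 others, a pattern shown by 0.376% of all genes tested. Tumours 9-1 and 9-2 were far above 8-1, and the single-agent tumours and control 2-1 overlapped.

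Combination tumours averaged 71.6 ± 33.6 CPM of PTX3 and control tumours 11.8 ± 6.51 CPM (SD, n = 3 each). The log2 difference was 2.56 (SE 0.42, edgeR adjusted p = 0.0824), and only 3 genes of the 12514 had a smaller unadjusted p. Leaving out 1 library at a time gave PTX3 log2 differences of 2.26 to 3.14 and edgeR adjusted p values from 0.0142 (without combination 8-1) to 0.468 (without combination 9-2). The value was also under the threshold without control 2-1 (edgeR adjusted p = 0.0166) or EZH2i 5-4 (0.0464), and with DESeq2 on all libraries (DESeq2 adjusted p = 2.1e-06).

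Against p38i the PTX3 difference of the combination was 2.06 (SE 0.40, edgeR adjusted p = 0.575, DESeq2 adjusted p = 0.00235, and up to 1 under other alternatives). Against EZH2i it was 1.91 (SE 0.40, edgeR adjusted p = 0.991, DESeq2 adjusted p = 0.0301, and up to 1 under other alternatives). In the comparison with EZH2i, PTX3 ranked 1 of 12514 genes by unadjusted p, at 0.000357. Each agent alone gave a smaller PTX3 difference from control, 0.50 for p38i (SE 0.43, edgeR adjusted p = 0.579) and 0.65 for EZH2i (SE 0.43, edgeR adjusted p = 0.506). The interaction, which sets the effect of both agents together against the sum of their separate effects, was 1.41 (SE 0.59, edgeR adjusted p = 0.324) and did not pass. Without control 2-1, the control with the highest PTX3, these came to 1.08 for p38i, 1.24 for EZH2i and 0.83 for the interaction, with edgeR adjusted p values of 0.182, 0.183 and 0.566. Fibroblasts are also known to make PTX3, and the summed fibroblast markers were 857, 540 and 1130 CPM in combination 8-1, 9-1 and 9-2. The part of fibroblasts in the PTX3 levels was not tested.

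**Figure D3:**
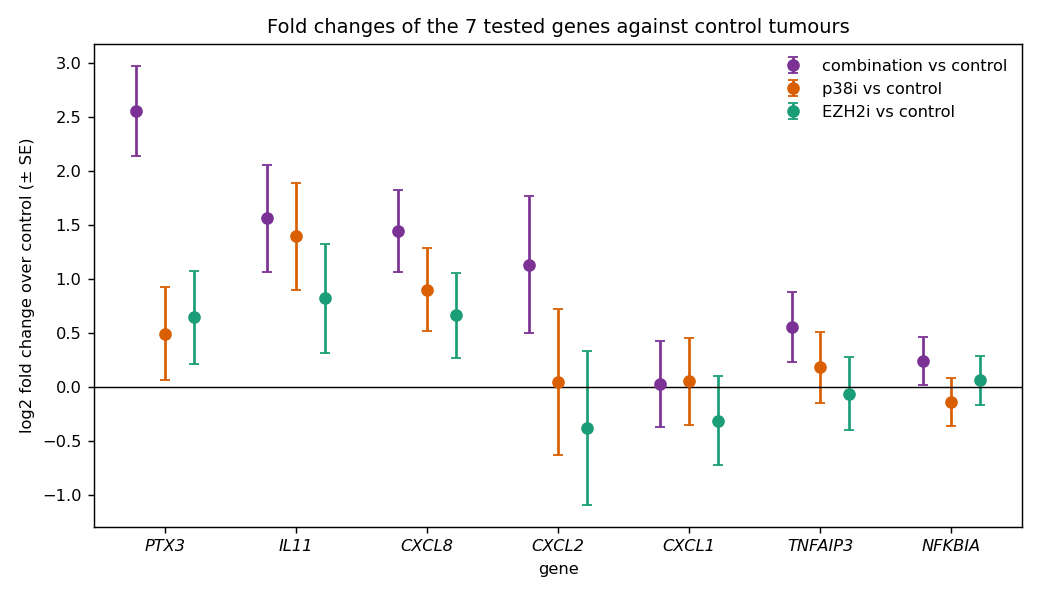
Log2 fold changes over control (y axis, points with SE as whiskers) of the 7 tested genes (x axis) for the combination, p38i and EZH2i, from the edgeR fit to all 12 libraries. PTX3 stands at 2.56 for the combination and at 0.50 and 0.65 for p38i and EZH2i, and the values of CXCL1 and NFKBIA lie between -0.31 and 0.24.

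Neither of the 2 inhibitors of NF-kB passed the test in any of the 6 comparisons. TNFAIP3 measured 14.1, 26.9 and 22.9 CPM in combination, 26.6, 10.8 and 12.7 in p38i, 15.4, 11.4 and 15.3 in EZH2i, and 15, 12.9 and 15.6 CPM in control tumours. The high values were those of combination 9-1 and 9-2 and p38i 3-3, the same 3 libraries that led for CXCL8. Its log2 difference from control was 0.56 for the combination (SE 0.32), 0.18 for p38i (SE 0.33) and -0.06 for EZH2i (SE 0.34), with edgeR adjusted p values of 0.399, 0.822 and 0.956.

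NFKBIA had the most reads of the group, 541 to 1288 per library, and the smallest SE of the 7 tested genes in each of the 6 comparisons. It measured 335, 284 and 267 CPM in combination, 308, 197 and 176 in p38i, 341, 199 and 243 in EZH2i, and 225, 236 and 286 CPM in control tumours. The groups overlapped, and the whole range over 12 tumours was 176 to 341 CPM. The NFKBIA log2 difference from control was 0.24 for the combination (SE 0.22), -0.14 for p38i (SE 0.22) and 0.06 for EZH2i (SE 0.22), with edgeR adjusted p values of 0.593, 0.804 and 0.932.

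Libraries of 1 group differed from each other across several genes at once. With each gene set against its own mean over the 12 libraries, combination 9-1 and p38i 3-3 were above the mean for all 7 genes, combination 9-2 for 6 and combination 8-1 for 5. The p38i library of column 5 and EZH2i 6-1 were above it for none of the 7. The mean over the 7 genes was 0.24, 0.92 and 0.72 log2 units in combination 8-1, 9-1 and 9-2. It was 0.52, -0.64 and -0.06 in p38i 3-3, column 5 and column 6, and -0.02, -0.14 and -0.30 in EZH2i 5-3, 5-4 and 6-1. In control 1-1, 1-3 and 2-1 it was -0.27, -0.58 and -0.39. The summed fibroblast markers ranged from 289 CPM in p38i 3-3 to 1130 CPM in combination 9-2, and their part in these levels was not tested. Over the 12 libraries these means ran from -0.64 in p38i column 5 to 0.92 in combination 9-1.

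**Figure D4:**
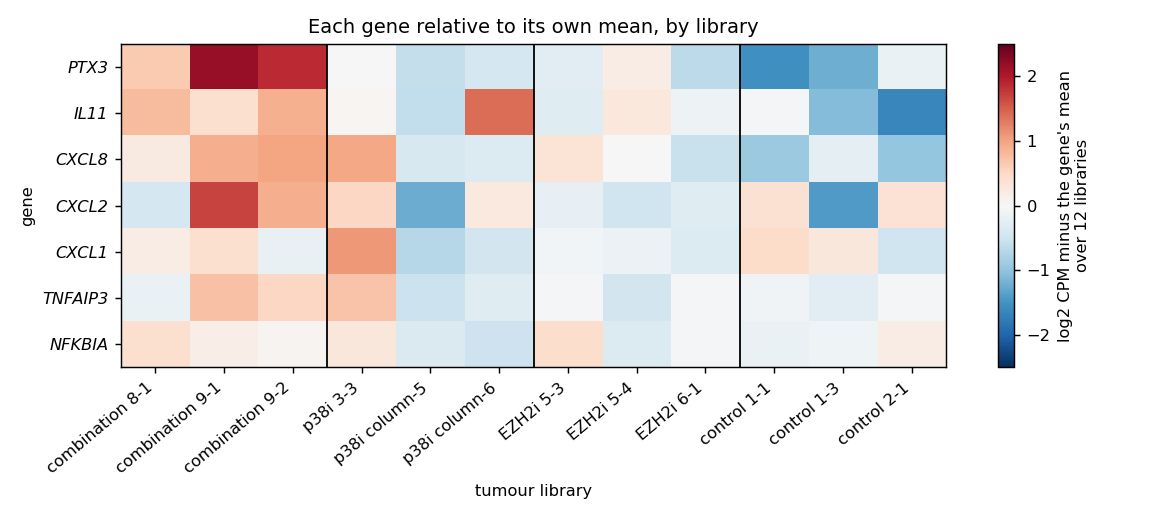
Log2 CPM of each tested gene minus its mean over 12 libraries (colour scale, red above and blue below), with genes as rows and libraries as columns grouped as combination, p38i, EZH2i and control. Combination 9-1 and p38i 3-3 are above the mean in all 7 rows, and p38i column 5 is below it in all 7.

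PTX3, IL11 and CXCL8, 3 of the 7 tested, had combination tumours wholly above controls, which holds for 10.7% of all genes. PTX3 was the 1 of 7 with combination tumours wholly above p38i tumours (6.77% of all genes), and PTX3 and IL11 were 2 of 7 wholly above EZH2i tumours (3.34%). Neither p38i nor EZH2i separated any of the 7 from control, where 24.8% and 16.4% of all genes were separated in either direction. No member had all 9 treated tumours above all 3 controls (2.79% of all genes). The comparisons with control share the same 3 control libraries, and those of the combination share its libraries.

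**Figure D5:**
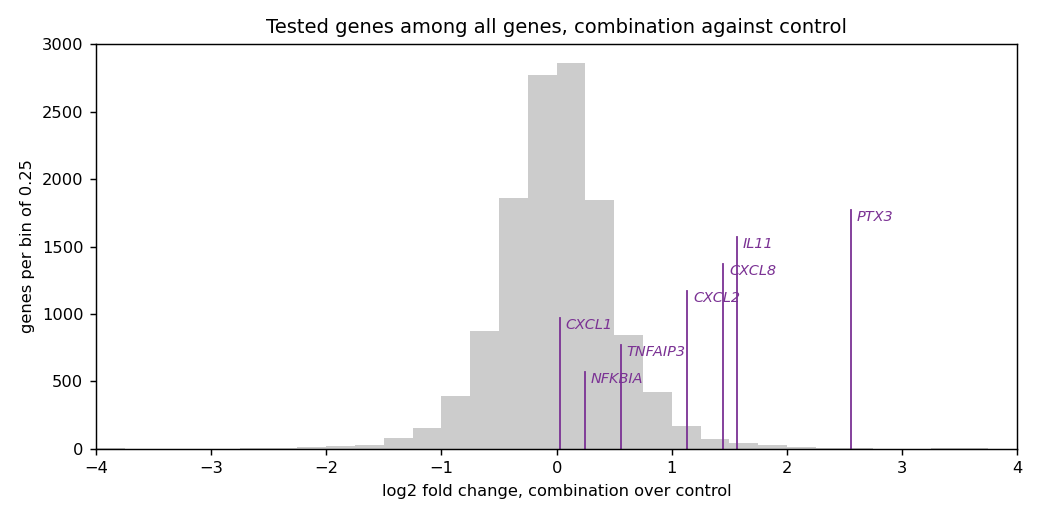
Number of genes (y axis, linear) per bin of 0.25 in log2 fold change, combination over control (x axis), for all genes tested, with lines, of no meaning in height, at the values of the 7 genes. PTX3 at 2.56, IL11 at 1.56 and CXCL8 at 1.45 lie in the upper tail, and CXCL1 at 0.03 lies at the centre.

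The wider NF-kB system was measured through lists that were chosen with earlier results of these data known. For the counts below at an unadjusted p under 0.05 in either direction, the share of all genes was 16.3% for the combination, 18.4% for p38i and 14.7% for EZH2i against control. Of 25 NF-kB subunits and regulators 24 were tested and none passed in any of the 6 comparisons by edgeR, while 4 had an unadjusted p under 0.05 for the combination, 5 for p38i and 2 for EZH2i against control. DESeq2 called NFKB1 higher with the combination and NFKBIZ lower with p38i, 1 gene each, and limma-voom none. The median log2 difference of the list for the combination against control was -0.02, against 0.01 for all genes. RELA, the transactivating p65 subunit, measured 117 ± 5.92 CPM in combination, 110 ± 20.5 in p38i, 144 ± 49.2 in EZH2i and 124 ± 17.6 CPM in control tumours (SD, n = 3 each). NFKBIZ, an atypical IkB that assists induction of IL6 and other secondary genes, measured 118 ± 16.2, 80.1 ± 7.77, 102 ± 16.4 and 125 ± 35.3 CPM in the same groups.

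Among 32 other NF-kB-inducible secreted and surface genes 15 were tested and none passed in any comparison by edgeR, with 2 at an unadjusted p under 0.05 for the combination, 2 for p38i and 2 for EZH2i against control. DESeq2 called 1, TNFSF15, a cytokine of the tumour necrosis factor family, as higher in all 3 treated groups than in control and as negative for the interaction, and limma-voom called none. Several secreted factors had few reads: CCL2 had 0 to 3 counts per library, TNF 0 to 3, CSF2 0 to 4, CXCL10 0 to 3 and IL1B 1 to 7. PLAU, the urokinase gene, varied most within groups, at 83.2, 704 and 222 CPM in combination, 54.5, 15.4 and 218 in p38i, 18.7, 24.1 and 363 in EZH2i, and 14.6, 39 and 364 CPM in control tumours. In each group 1 tumour held most of the PLAU signal, and the log2 difference of 1.26 for the combination had an SE of 1.54 (edgeR adjusted p = 0.708).

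The factors that control message stability and the p38-MK2 axis gave no edgeR call. Of 24 listed genes 21 were tested and none passed in the 6 comparisons by edgeR, with 2 at an unadjusted p under 0.05 for the combination, 4 for p38i and 2 for EZH2i against control. DESeq2 called KHSRP and MAPK13 higher with p38i, HSPB1 higher with EZH2i and HSPB1 negative for the interaction, and limma-voom called none. KHSRP, which promotes decay of AU-rich messages, measured 516 ± 63.7 CPM in combination, 708 ± 61.4 in p38i, 613 ± 176 in EZH2i and 464 ± 33.1 CPM in control tumours (SD, n = 3 each). ZFP36L1, a decay factor related to tristetraprolin, measured 1981 ± 154 CPM in combination, 1582 ± 165 in p38i, 1686 ± 502 in EZH2i and 1877 ± 260 CPM in control tumours (SD, n = 3 each). ZFP36 itself was below the filter, with 8 to 23 counts in combination, 6 to 10 in p38i, 2 to 10 in EZH2i and 1 to 19 counts in control libraries. HSPB1, the small heat shock protein phosphorylated by MK2, measured 169 ± 34.7, 239 ± 55.2, 313 ± 113 and 169 ± 0.288 CPM in the same groups.

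Upstream of NF-kB, TNFRSF1A was the 1 listed gene to pass with edgeR. It encodes the main receptor for tumour necrosis factor. It measured 151, 155 and 126 CPM in combination, 97.5, 117 and 127 in p38i, 134, 116 and 116 in EZH2i, and 183, 266 and 184 CPM in control tumours. All treated tumours lay below all controls. The share of all genes with that pattern was not computed, and the reverse, 9 treated above 3 controls, held for 2.79%. Between p38i and control tumours, 24.8% of all genes did not overlap, in either direction, and edgeR called 1.77%. TNFRSF1A fell by 0.89 on the log2 scale in p38i tumours (SE 0.18, edgeR adjusted p = 0.0298), the 1 call among 15 tested receptors and adaptors in the 6 comparisons. Its differences from control with the combination, -0.55 (SE 0.17), and with EZH2i, -0.79 (SE 0.18), did not pass (edgeR adjusted p = 0.202 and 0.0749). The p38i call was lost without p38i 3-3, column 5, column 6 or control 1-3, with edgeR adjusted p values of 0.0903, 0.0866, 0.0844 and 0.133. The interaction for TNFRSF1A was 1.13 (SE 0.25, edgeR adjusted p = 0.0888). DESeq2 called TNFRSF1A lower with p38i and with EZH2i and positive for the interaction, and limma-voom called it lower with p38i. DESeq2 also called LTBR, the lymphotoxin beta receptor, lower with each of the 3 treatments.

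Some receptors for the secreted factors had few reads. CXCR1 had 0 or 1 count per library, CXCR2 0 to 3, CCR6 0 to 5 and IL6R 0 to 9. IL6ST, the shared chain for IL6, IL11 and LIF, measured 205 ± 50.3 CPM in combination, 171 ± 19.3 in p38i, 168 ± 26.8 in EZH2i and 149 ± 29.9 CPM in control tumours (SD, n = 3 each). LIFR, the partner chain for LIF, measured 87 ± 11.2, 74 ± 8.25, 72.5 ± 9.75 and 85.8 ± 24 CPM in the same groups. Of 20 listed receptors and STAT3 arm genes 14 were tested and none passed in any comparison by edgeR, with 4 at an unadjusted p under 0.05 for the combination, 3 for p38i and 2 for EZH2i against control. DESeq2 called 2, BCL6 and IL11RA, lower with p38i, and limma-voom none. IL11RA is the receptor chain specific to IL11.

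The genes outside the group whose log2 CPM followed CXCL8, IL11 and NFKBIA most closely over the 12 libraries were taken as the top 3 of 12507 for each, as a description with no p. For CXCL8 they were FTSJ1 (Pearson r 0.923, Spearman rho 0.902), TRAF1 (0.889 and 0.874) and IGDCC4 (0.85 and 0.818). TRAF1, an adaptor of tumour necrosis factor receptors and a known NF-kB target, measured 7.03, 8.59 and 7.22 CPM in combination, 10.2, 5.8 and 5.87 in p38i, 8.13, 7.71 and 3.93 in EZH2i, and 3.75, 4.5 and 4.03 CPM in control tumours. As for CXCL8, p38i 3-3 was the high library of its group and EZH2i 6-1 the low one. That likeness follows from choosing TRAF1 by its correlation with CXCL8 over these same libraries. For IL11 they were TP73-AS1 (r 0.884, rho 0.93), ZNF347 (0.851 and 0.825) and POLM (0.842 and 0.895). For NFKBIA they were RPS29 (r 0.892, rho 0.867), AMPD3 (0.873 and 0.874) and ELOVL7 (0.859 and 0.811). Without the pair of libraries farthest from the member's median, r was 0.891, 0.899 and 0.802 for the CXCL8 set, 0.793, 0.667 and 0.8 for the IL11 set, and 0.869, 0.803 and 0.914 for the NFKBIA set.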

How the data were processed

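The table deposited by the authors holds raw read counts, with a column for each tumour library and a line for each gene symbol. The submitters' processing notes list Trim Galore 0.5.0, STAR 2.6.0 and the build hg19. How reads were counted, against which annotation and with what regard to strand is not given in the sources used here. The labels' protocols name both a SMARTer mRNA kit and QuantSeq, so levels of different genes were not compared. Another 3 lines carried no gene name and no counts and were dropped. In the labels, 2 p38i samples name column 5 and none names column 6, so both were used as p38i libraries, column 6 by elimination.

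With edgeR 4.0.16 (R 4.3.3), genes passing filterByExpr were scaled by TMM and tested by the robust quasi-likelihood F test, two-sided, in 1 model of all 4 groups, so that the groups share 1 estimate of the spread (biological coefficient of variation 0.22). The 6 comparisons were each adjusted by Benjamini-Hochberg over 12514 genes, with a threshold of 0.05. CPM values use the TMM-scaled library sizes, SE values derive from the F statistic, and log2 CPM has a prior count of 2. DESeq2 1.42.0 and limma 3.58.1 (voom) were alternatives. The code was tested on simulated data. No 2 libraries of the same group were alike enough to be 1 library deposited again, and pairs across groups were not checked. The labels name separate tumours but not separate preparation, so p-values set group differences against the spread between these libraries. Some tumour numbers share their first part, as combination 9-1 and 9-2 do, and the independence of such tumours was not tested.

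The members and lists were chosen with earlier results of these data known. The text names all members, the listed gene that passed, some of the 4 most abundant further genes of each list, and the likeness sets. Sparse genes given as counts, ZFP36, and genes called by DESeq2 alone were named after their values were seen. Promoters came from RefSeq and untranslated regions from GENCODE release 29, both GRCh38, for sequence only.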

Additional observations from a re-analysis of the deposited data

How the results depend on the processing

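No paired analysis was possible because the labels give the groups no shared replicate numbers. The 6 comparisons were refitted with 1 library left out and with other scalings, filters and tools, and the 5 between 2 groups also on those groups alone. CXCL2 was missing from some of these fits. Of 867 refitted fold changes of the 7 genes, 826 kept direction and side of the threshold, 7 newly passed and 34 changed sign. The newly passing ones were PTX3 and CXCL8 for the combination. Members called for the combination were 2 with DESeq2 against control, 1 against p38i and 1 against EZH2i, and 0 to 1 against control with a library left out. A fit without both p38i columns 5 and 6 was added after seeing the data.

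Genes called for p38i against control were 632 with DESeq2, 0 without columns 5 and 6, and 2 to 568 with 1 library left out, and the split of 82 higher and 139 lower became 102 and 102 with library totals alone. For EZH2i they were 232 with DESeq2, 16 with limma-voom, 114 with no filter, 4 on the groups compared alone, 7 without columns 5 and 6, and 2 to 125 with 1 library left out. For the combination against control they were 3 with library totals alone, 167 with DESeq2, 42 with no filter, 4 on the groups compared alone and 0 to 229 with 1 library left out. For the combination against p38i they were 7 with DESeq2 and 1 with no filter, and against EZH2i 1 with DESeq2. For the interaction they were 226 with DESeq2, 70 with no filter, 1 without columns 5 and 6, and 2 to 42 with 1 library left out. The cause of these shifts was not tested.

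On the log2 scale, the values that changed sign were as follows. With limma-voom CXCL1 was -0.13 for p38i and 0.24 for the combination against p38i, and CXCL8 was 0.024 for the interaction. With upper quartile scaling CXCL1 was -1.72e-05 for the combination. Without columns 5 and 6, NFKBIA was 0.32 for p38i, CXCL8, TNFAIP3 and NFKBIA were -0.23, -0.32 and -0.069 for the combination against p38i, and CXCL1, TNFAIP3 and NFKBIA were -0.64, -0.27 and -0.14 for the interaction. With 1 library left out the p38i difference ran from -0.73 to 0.39 for CXCL1, -0.39 to 0.49 for CXCL2, -0.30 to 0.44 for TNFAIP3 and -0.42 to 0.027 for NFKBIA. For EZH2i it ran from -0.13 to 0.081 for TNFAIP3 and -0.16 to 0.23 for NFKBIA, and for the combination from -0.22 to 0.23 for CXCL1. Against p38i it ran from -0.35 to 0.76 for CXCL1 and -0.20 to 0.98 for IL11. The interaction ran from -0.41 to 0.47 for CXCL8, -0.047 to 1.07 for CXCL1 and -1.23 to 0.14 for IL11. The 3 libraries per group limit all tests, CXCL2 had at most 56 reads in a library, and IL6, CCL20 and LIF, below the filter, passed in 0 comparisons of the edgeR fit with no filter.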
